A study of Gallus gallus with 8 samples.

Results

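Chromosome Z, the sex chromosome that a male chicken carries as a pair and a female carries singly beside W, took up the last 824 rows of the expression table of the developing chicken eye. The genes described here are the 577 rows of that block with a mean of at least 20 normalized counts over the 8 libraries, after 25 rows whose symbols start with SLC, KCN, ITG, ADAM, NDUF, RPS, RPL or COL had been left out. The remaining 222 rows of the block were below that mean, and 81 of them had no read in any library. The whole table held 16700 rows. Among the members, 507 carried a gene symbol, 65 only an Ensembl identifier and 5 a microRNA name. The mean that chose them put gga-mir-6613 at 20.2, HTR1A at 20.6 and ENSGALG00000026659 at 21.3 just inside, and LIX1 at 19.9, ENSGALG00000021163 at 19.6 and ENSGALG00000015366 at 18.5 just outside.

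The libraries came from whole retina at embryonic days 8, 16 and 18 (E8, E16, E18) and from whole cornea at E18, with 2 biological duplicates in each of the 4 groups. All embryos came from commercial eggs of the Cobb/Hubbard F1 hybrid cross, and no treatment was compared. The values are whole-tissue counts of poly-A RNA, so that fewer cells of a type and less RNA per cell cannot be told apart. The libraries held between 15662779 and 45670254 reads on genes. The position of the block was checked by name: 602 of its rows matched a gene in the later assembly GRCg7b, and 601 of these lay on chromosome Z there. The exception, NEDD4L, matched an entry on W. Of 599 adjacent pairs of matched rows, 584 were also neighbours in GRCg7b, so the row order follows the chromosome. Summed over the marker list of photoreceptors, 6 of 7 of which were in the table, the libraries held 2601 to 3632 normalized counts at E8 and 64902 to 122110 in the later retinas. The cornea list summed to 657732 and 668138 in cornea and to between 86.2 and 764 in the retinas.

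Birds have no chromosome-wide silencing like that of the mammalian X. Genes of Z are compensated gene by gene and only in part, so that many are expressed more highly in male (ZZ) than in female (ZW) tissue, while others reach the same level in both sexes. A few Z genes have kept a copy on W. The best known Z gene is DMRT1, which directs the gonad of the chick embryo towards a testis. The labels do not give the sex of the embryos.

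The 17 rows between the last mitochondrial gene and the Z block carry no gene names beyond a small nucleolar RNA. They lie where chromosome W would come in an alphabetical order. Rows named for W genes lay earlier, however, among them HINTW at row 14776 and ATP5A1W at row 15400, while the Z block began at row 15877. The chromosome of the 17 rows was not checked here, since the GRCg7b table does not hold their identifiers. Of these, 8 had a mean of at least 20, and 7 of the 8 were at or near 0 in both E8 libraries and expressed in all the others. ENSGALG00000014441 had no read in either E8 library, 1386 and 1274 normalized counts at E16, 1208 and 1311 at E18 and 572 and 711 in cornea. ENSGALG00000005785 measured 0 and 0.98 at E8, 1399 and 1364 at E16, 1957 and 1630.1 at E18 and 906 and 835 in cornea. ENSGALG00000014184 was the only one of the 7 with more than 1 read in an E8 library, at 5.86 and 7.84 against values from 970.3 to 1595 in the other 6. The eighth row, ENSGALG00000018356, stood the other way, with 51.6 and 61.7 at E8 and 3.15 to 20.05 elsewhere. Of the Z members, 3 had at most 3 reads in each E8 library and at least 20 normalized counts in all 6 others. AQP3, described with the reversed class, had 3 reads and 1 read at E8. GLRX, a glutaredoxin, had 1 read in the first E8 library and none in the second, and measured 0.586 and 0 at E8, 26.3 and 58.8 at E16, 89.0 and 85.6 at E18 and 86.7 and 101 in cornea. ENSGALG00000018479, which the files give no name, had no read in either E8 library, 500.3 and 549.9 at E16, 382 and 394 at E18 and 788 and 607 in cornea, at least 179-fold, 132-fold and 237-fold above the value of 3 reads in the shallower E8 library. No member showed the converse, at least 20 normalized counts in both E8 libraries with at most 3 reads in each of the other 6. Across the whole table, 54 rows had at most 3 reads in each E8 library and at least 20 normalized counts in all others, and 46 of them lay outside these regions. Whether the E8 embryos differed in sex from the others was not tested, and in this design it cannot be told apart from age.

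Members of the Z block stood above the rest of the table in both E8 libraries and in no retina library of a later age. For each library, the median log2 deviation of the 577 members from their own mean over the 4 groups was set against that of the 11712 rows outside the block with the same minimum mean. The members lay 0.46 and 0.42 above those rows in the E8 libraries. In the E16 libraries they lay at -0.26 and -0.30, in the E18 retina libraries at -0.10 and -0.16 and in the cornea libraries at -0.03 and 0.01. The duplicates of each group were close together on this scale and the E8 pair did not overlap any other library. The share of all normalized counts that fell on members was 4.41% and 4.32% at E8, 3.18% and 3.08% at E16, 3.23% and 3.19% at E18 and 3.75% and 3.76% in cornea. RNA counts of marker genes of dividing precursor cells were also highest in the E8 libraries. Summed over the 6 listed markers, which include the member SMC2, they came to 119345 and 102303 at E8, between 594 and 928 in the later retinas and 7945 and 7208 in cornea. Their part in the level of the block was not tested.

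None of the 25 other chromosomes that could be compared had a shift of this size. Names matched in GRCg7b placed 9853 rows of the same minimum mean on these chromosomes, with at least 100 rows on each. The median log2 ratio of E8 to E16 retina was 0.66 over the Z members and ran from -0.35 on chromosome 24 to 0.13 on chromosome 7. For E8 over E18 retina the Z median was 0.51, and the others ran from -0.29 to 0.24. For E8 over cornea it was 0.49, with the others between -0.25 and 0.28. Of the members, 371 of 577 (64.3%) were higher at E8 than the mean of the other 3 groups, against 40.8% to 55.6% on the other chromosomes. These are medians over genes of the same libraries and carry no test. The 3 ratios share the E8 libraries.

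**Figure D1:**
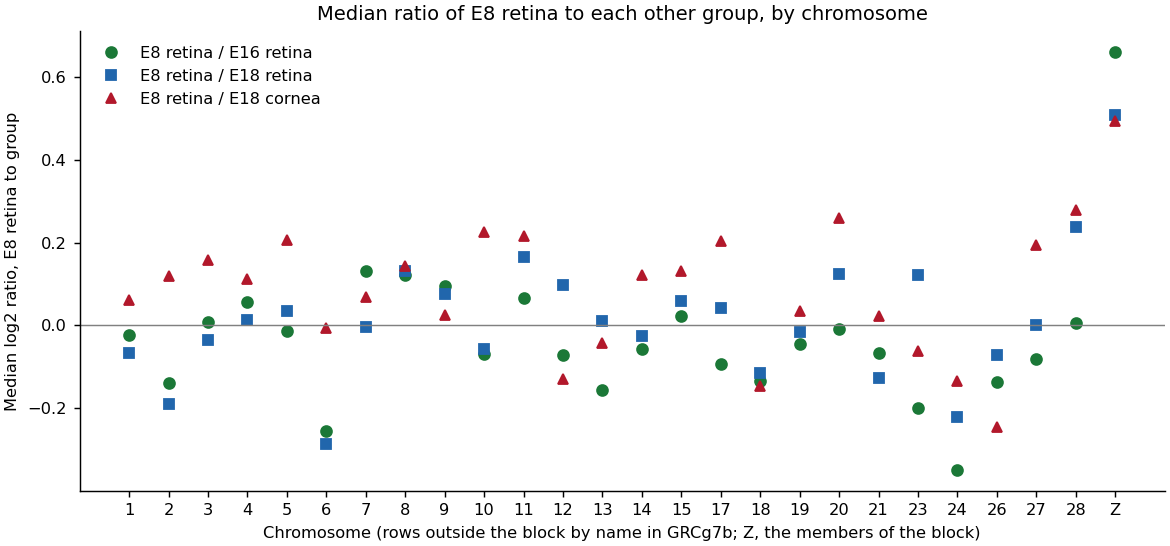
Median log2 ratio of E8 retina to E16 retina (circles), E18 retina (squares) and E18 cornea (triangles) over the rows of each of 25 chromosomes and over the 577 members of Z. All 3 Z medians, 0.66, 0.51 and 0.49, lie above every median of the other chromosomes, of which the highest is 0.28.

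Against E8 retina, more members were lower than higher in each of the other groups. A row was called at an adjusted p under 0.05 (limma, Benjamini-Hochberg over the 13194 rows tested, all members among them). In E16 retina 314 members were lower and 117 higher than at E8, or 54.4% and 20.3%, whereas 30.3% of all tested rows were called lower and 34.1% higher. In E18 retina 298 were lower and 142 higher, where 31.4% and 35.0% of all rows were called in these directions. In cornea 295 were lower and 158 higher, against 37.0% and 37.4%. The median log2 differences over members were -0.66, -0.51 and -0.49, and over the 11712 outside rows 0.05, 0.03 and -0.06. Members with at most 3 reads in each library of only a single group of the pair were then set at the value of 3 reads there. With these, the member medians were -0.65, -0.48 and -0.48. Against the mean of the other 3 groups, 315 members were higher at E8 and 137 lower, or 54.6% and 23.7%, with 33.1% and 38.3% of all rows called. Both E8 libraries exceeded all 6 others for 231 members (40.0%, against 23.0% of all tested rows) and lay below all 6 for 74 (12.8%, against 22.2%). Replicates differed by a median of 0.24 on the log2 scale over members at E8, 0.13 at E16, 0.12 at E18 and 0.24 in cornea.

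**Figure D2:**
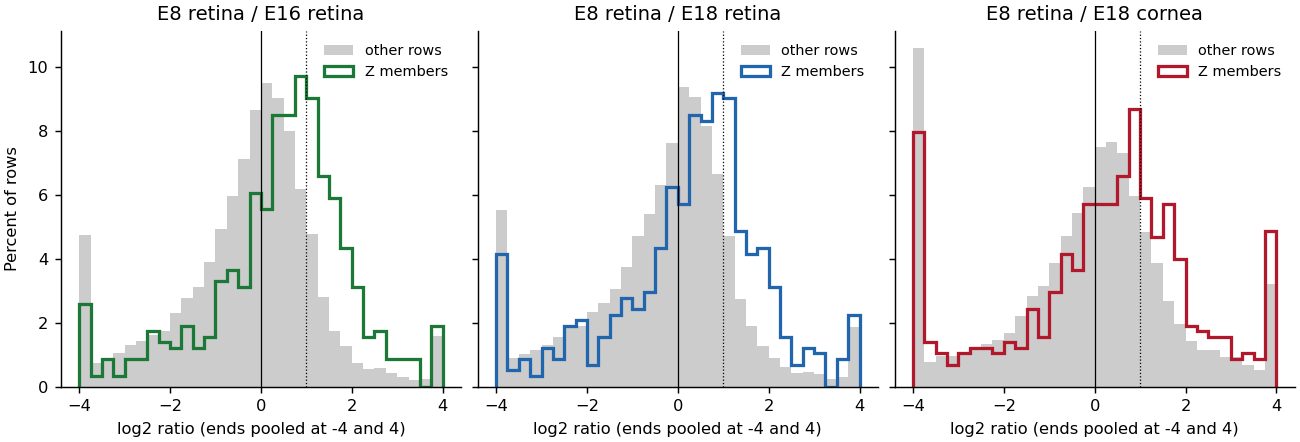
Percent of rows by log2 ratio of E8 retina to E16 retina, E18 retina and E18 cornea, for the 577 Z members (outline) and 11712 other rows (grey), with a solid line at no difference and a dotted line at 2-fold. The member medians of 0.66, 0.51 and 0.49 lie to the right of those of the other rows, -0.05, -0.03 and 0.06. Both distributions are broadest in the third panel.

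Sorted by the ratio of E8 to each of the other 3 groups, members fell into a near 2-fold class (all 3 ratios from 1.5 to 2.5), a class above it (all over 2.5), a class with no difference (all within 1.5 either way), a reversed class (E8 lower by over 1.5 in all) and a mixed remainder. Ratios are of group means on the log2(normalized count + 1) scale and understate the change of low genes. The classes were cut from these ratios, so calls of E8 against the other groups within a class describe it and are not independent of it. The near 2-fold class held 35 members (6.07%, against 3.31% of the outside rows), and the class above it 65 (11.3%, against 4.17%). The class with no difference held 41 (7.11%, against 13.5%) and the reversed class 66 (11.4%, against 17.7%). The other 370 members were mixed. Of these, 159 were higher at E8 than in all 3 groups, 35 were lower than in all 3, and for 176 the sign differed between groups. Ratios between 1.5 and 2.5 in both later retinas, whatever the cornea did, were seen in 88 members (15.3%) and in 8.96% of the outside rows.

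The near 2-fold class had means between 195 and 4502 normalized counts. SMU1, a splicing factor, measured 7186 and 5701 at E8, 4129 and 4054 at E16, 3719 and 3854 at E18 and 3492 and 3884 in cornea, with a log2 difference of E8 from the mean of the other groups of 0.73 ± 0.11 (SE) and an adjusted p = 0.00026. RNF20, which ubiquitinates histone H2B, measured 5423 and 4941 at E8, 2178 and 1996 at E16, 2101 and 2161 at E18 and 2343 and 2414 in cornea, with E8 2.48-fold above E16, 2.43-fold above E18 retina and 2.18-fold above cornea. Against the mean of the other groups its difference was 1.24 ± 0.09 on the log2 scale (adjusted p = 3.4e-06). SNX2, a sorting nexin of the retromer, measured 5962 and 5584 at E8, 3701 and 3939 at E16, 3283 and 3347 at E18 and 2684 and 2559 in cornea. Of the cytoskeletal members, the tubulin folding cofactor TBCA measured 4172 and 4155 at E8, 2551 and 2702 at E16, 1820.5 and 2168 at E18 and 1972 and 2033 in cornea. DCTN3, a subunit of dynactin, measured 3963 and 4034 at E8, 2365 and 2416 at E16, 1779 and 1825 at E18 and 1900.0 and 2206 in cornea. In both the E8 duplicates were close to each other and the later groups lay apart from them, with E8 2.10-fold above E18 retina for TBCA and 2.22-fold for DCTN3. TARS, the threonyl-tRNA synthetase, measured 4110.1 and 3938 at E8, 1969.8 and 1856 at E16, 1795 and 1769 at E18 and 2099 and 2250.4 in cornea, with ratios of 2.10, 2.26 and 1.85. The other named members of the class, in row order, were TXNL1, EPG5, PIK3C3, KIAA1328, TAF1C, DNAJC21, C5orf28, ERCC8, SREK1IP1, CDK7, MED18, GFM2, CBWD1, GNAQ, NAA35, DAPK1, RIOK2, ZCCHC9, RAD17, IKBKAP, TSTD2, SMN, CEP120 and DCAF10. They include the kinase of transcription and the cell cycle CDK7, the checkpoint clamp loader RAD17 and SMN, which assembles spliceosomal ribonucleoproteins.

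The class above 2-fold included enzymes, chromatin and cell division proteins and regulators of retinal development. HMGCS1, an enzyme of cholesterol synthesis, measured 15392 and 15954 at E8, 3335 and 4052 at E16, 5487 and 5464 at E18 and 4706 and 4143 in cornea, and E8 was 4.26-fold above E16, 2.86-fold above E18 retina and 3.55-fold above cornea. The 6 later libraries all lay far below the E8 pair, and the E18 retina pair lay above the E16 pair. NNT, the mitochondrial nicotinamide nucleotide transhydrogenase, measured 9249.7 and 8858 at E8, 1506 and 1673 at E16, 2061 and 1905 at E18 and 3060.4 and 3561 in cornea, ratios of 5.70, 4.57 and 2.74. PSIP1, a chromatin-binding coactivator, measured 9645 and 7997 at E8, 1961 and 1741 at E16, 2199 and 2293 at E18 and 1489 and 1139 in cornea. RORB, an orphan nuclear receptor needed for rod development in mouse, measured 11085 and 8793 at E8, 871 and 950.2 at E16, 1509 and 1324 at E18 and 9.22 and 15.97 in cornea. It thus stayed well above the cornea at every retinal age while E8 was 10.8-fold above E16 and 6.98-fold above E18. ALDH1A1, which makes retinoic acid in the dorsal retina, measured 10028 and 6236 at E8, 767 and 887 at E16, 624 and 766 at E18 and 42.4 and 46.7 in cornea. PTCH1, the Hedgehog receptor, measured 4286 and 4623 at E8, 761 and 856 at E16, 1359 and 1223 at E18 and 454 and 445 in cornea. Both were highest at E8 and lowest in cornea, without overlap. Other named members of the class were ONECUT2, SMAD7A, KATNAL2, RNF165, HAUS1, SETBP1, KIF24, FANCG, CZH9ORF100, BRIX1, AGXT2, C5orf42, NUP155, ZNF131, ZOV3, DHX29, SKIV2L2, GPBP1, DEPDC1B, CWC27, CENPK, PPWD1, CENPH, POC5, ANKRD31, UTP15, FOXD1, UHRF2, CCDC171, HAUS6, SMC5, ABHD17B, CEP78, GKAP1, RMI1, FANCC, ZNF367, WDR36, LMNB1, FAM172A, AK6, SMC2, TOPORS, CAAP1, PLAA, MOB3B, ZNF608 and MELK, and a row whose name was turned into a date in the table.

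The named members with the largest excess of E8 over the mean of the other groups were SMC2, MELK and DEPDC1B. SMC2, a core subunit of condensin, measured 27791 and 21311 at E8, 56.8 and 48.2 at E16, 32.6 and 21.96 at E18 and 1762 and 1495 in cornea, with E8 456-fold above E16, 877-fold above E18 retina and 14.99-fold above cornea, with a log2 difference of 7.51 ± 0.19 against the mean of the others (adjusted p = 1.6e-08). MELK, a mitotic kinase and the last member of the block, measured 1982 and 1392 at E8, 3.15 and 4.09 at E16, 2.51 and 2.27 at E18 and 149 and 142 in cornea. DEPDC1B, a DEP domain protein of the cell cycle, measured 3363 and 1911 at E8, 14.7 and 15.5 at E16, 6.26 and 4.54 at E18 and 181 and 200.2 in cornea, with ratios of 157, 399.7 and 13.3. All 3 were low in the later retinas, with intermediate levels in cornea.

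The class with no difference held 41 members. Against the mean of the other groups 35 of them were not called and 6 were called higher at E8. Of all tested rows, 33.1% were called higher and 38.3% lower. The class was cut from the same ratios, so these calls only describe it. DCAF12, a substrate receptor of a cullin ligase, measured 4074 and 2709 at E8, 3905 and 3938 at E16, 3880.3 and 3990.2 at E18 and 2876 and 3169 in cornea. Its E8 duplicates lay on both sides of the later retinas, with a log2 difference of -0.12 ± 0.14 against the mean of the others (adjusted p = 0.49), and the test was not passed. PAIP1, which binds the poly-A binding protein in translation, measured 3679 and 3294 at E8, 3435 and 3101 at E16, 3566 and 3715 at E18 and 2509 and 2254 in cornea. CHPKCI measured 4743 and 4908 at E8, 3955 and 4537 at E16, 3234 and 3509 at E18 and 3767 and 5106 in cornea. Its cornea pair lay on both sides of its E8 pair. GRCg7b lists the name CHPKCI as a synonym of HINT2, but a separate member of the block is named HINT2, so the identity of CHPKCI was not settled. AP3S1, a subunit of the AP-3 adaptor, measured 4693 and 4974 at E8, 3534 and 3538 at E16, 3319 and 3349 at E18 and 2854 and 3946 in cornea, with E8 1.37-fold above E16, close to the limit of the class. GNE, the key enzyme of sialic acid synthesis, measured 3067 and 3249 at E8, 3078 and 2481 at E16, 2401 and 2306 at E18 and 2365 and 2359.7 in cornea. TMEM167A measured 2390.5 and 2854 at E8, 2065 and 2065 at E16, 2018 and 2175 at E18 and 3433 and 4409.9 in cornea, and here the cornea was the highest group. The other named members were MALT1, NUDT2, GALT, PIGO, GBA2, NPR3, AMACR, RANBP3L, OXCT1, ARL15, MAP3K1, CZH5ORF44, MAST4, PDE8B, MRPS27, CDC37L1, SEMA4D, SPTLC1, ISOC1, RGMB, MFSD7, TMEM175, SSBP2, KIAA1958, PTBP3, SUSD1, UGCG, DNAJA1, ATG12 and MCCC2. GALT, GBA2, SPTLC1 and UGCG among them are enzymes of sugar and sphingolipid metabolism.

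**Figure D3:**
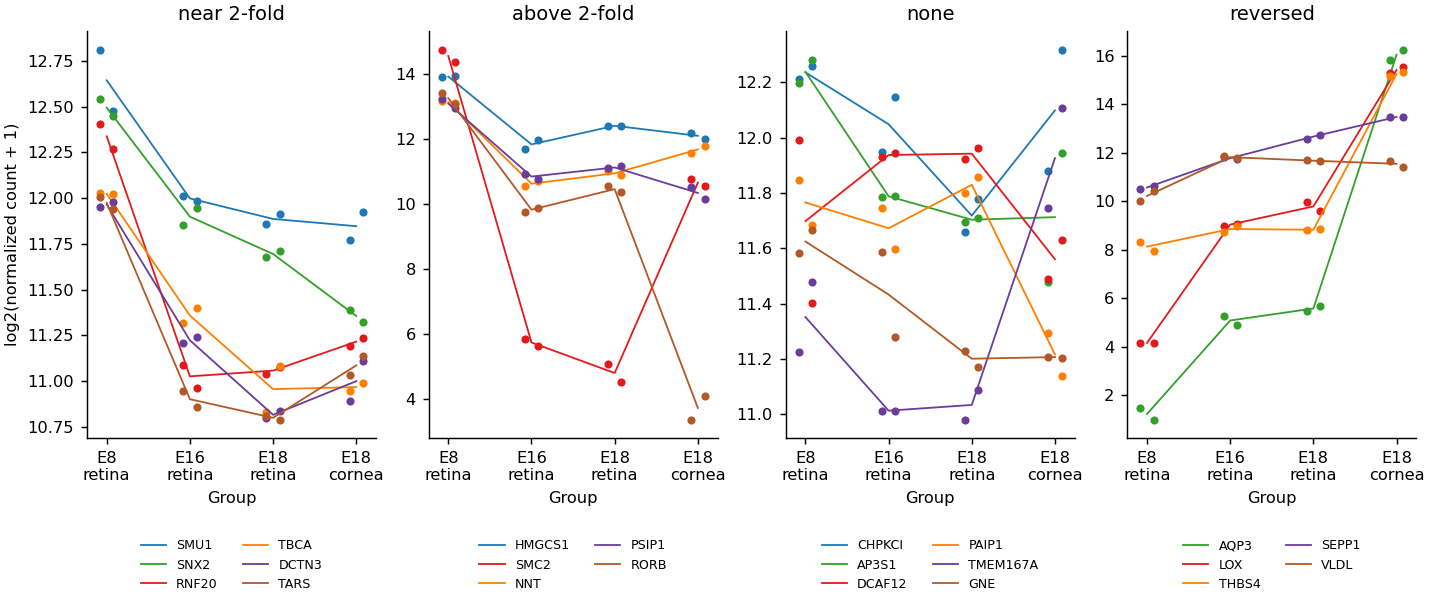
log2(normalized count + 1) in the 4 groups for named members of each class with high mean counts, up to 6 in a panel; points are single libraries, lines join group means, and each panel has its own vertical scale. E8 is the highest group throughout the first 2 panels, stands within 1.5-fold of the others in the third and is the lowest in the fourth.

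In the reversed class of 66 members, several were by far highest in cornea. They include AQP3, LOX and THBS4, and also OSMR, DMRT2 and DOCK8, with the values of the latter given further on. AQP3, the water and glycerol channel of surface epithelia, measured 1.76 and 0.980 at E8, 37.8 and 28.6 at E16, 43.9 and 50.0 at E18 and 58819 and 78352 in cornea, the E8 values being 3 reads and 1 read. LOX, which crosslinks collagen and elastin, measured 17.0 and 16.7 at E8, 511 and 542 at E16, 1012 and 774 at E18 and 40239 and 47949.6 in cornea, E18 retina 49.7-fold above E8. In AQP3 and LOX both cornea libraries lay far above every retina and the later retinas above E8. THBS4, a thrombospondin of the matrix, measured 320.5 and 244 at E8, 429.9 and 498 at E16, 445 and 463 at E18 and 36999 and 41594 in cornea, so that the retinal ages differed by only 1.65-fold at E16 and 1.62-fold at E18. In other members the later retinas also stood well above E8. SEPP1, selenoprotein P, measured 1442 and 1608 at E8, 3592 and 3448 at E16, 6173 and 6920.3 at E18 and 11540.5 and 11376 in cornea. VLDL, which GRCg7b lists as the lipoprotein and Reelin receptor VLDLR, measured 1039 and 1371 at E8, 3709 and 3543 at E16, 3319 and 3239.8 at E18 and 3274 and 2743 in cornea, with every other group between 2.51-fold and 3.03-fold above E8, with a log2 difference of -1.46 ± 0.12 against the mean of the others (adjusted p = 9.8e-06). KLF9, a transcription factor that responds to thyroid hormone and glucocorticoids, measured 127 and 163 at E8, 1576 and 1681 at E16, 4546 and 5108 at E18 and 1583 and 1734 in cornea, and the later retinas did not overlap. SH3GL2, endophilin A1 of synaptic vesicle recycling, measured 214 and 244 at E8, 2161 and 2147 at E16, 5763 and 5255 at E18 and 441 and 461 in cornea. It was highest in E18 retina, 24.0-fold above E8. Other named members were ALPK2, SEC11C, ZBTB7C, ST8SIA5, PSTPIP2, IL11RA, FAM214B, CCBE1, PDZD2, OSMR, FYB, DAB2, C7, FGF10, FST, PPAP2A, ELOVL7, HTR1A, PIK3R1, CMYA5, DMGDH, GCNT4, FAM169A, ZNF366, PGM5, DOCK8, DMRT2, AK3, CD274, KDM4C, PCSK5, IDNK, NTRK2, AGTPBP1, FBP1, AAED1, PAM, NRG1, PCSK1, GLRX, POLR3G, MEF2C, HAPLN1, LPAR1, TMEM215 and TMOD1.

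The role lists were chosen with earlier results of these data known, so their counts only describe the listed members. By role, those listed Z genes with a W copy that were found by symbol stood on the high side at E8. Of the 25 listed, 8 were members under the listed symbol. All 8 were called higher at E8 than the mean of the other groups, with a median log2 difference of 0.98. Genes held under another symbol were not matched to the list, and CHPKCI, MADH2 and SPINZ were not among the 8. Over all tested rows 33.1% were called higher and 38.3% lower, with a median of -0.07, and over all members 54.6% and 23.7%. All 8 were lower at E16, 7 at E18 retina and 6 in cornea, where 30.3%, 31.4% and 37.0% of all rows were called lower. ATP5A1, the alpha subunit of ATP synthase, measured 18195 and 16145 at E8, 7182 and 7005 at E16, 8697 and 8352 at E18 and 4793 and 6740.1 in cornea, and E8 was 2.42-fold above E16, 2.01-fold above E18 retina and 3.02-fold above cornea. UBE2R2, a ubiquitin-conjugating enzyme, measured 3917 and 3325 at E8, 1866 and 1939.7 at E16, 2551 and 2639 at E18 and 1278 and 1298 in cornea, with a log2 difference of 0.96 ± 0.09 against the mean of the others (adjusted p = 2.4e-05). TXNL1, a thioredoxin-like protein of the proteasome, measured 4550.1 and 3674 at E8, 2105 and 1982 at E16, 1586 and 1718 at E18 and 1487 and 1900.3 in cornea, with ratios of 2.00, 2.48 and 2.43. VCP, the AAA ATPase that extracts ubiquitylated proteins, measured 11787 and 10131 at E8, 6921 and 6851 at E16, 8859 and 8454 at E18 and 4103 and 4785 in cornea. The exceptions in single comparisons were NEDD4L, with 3968 and 3281 at E8, 1919 and 1880.0 at E16, 3841 and 3727 at E18 and 3352 and 3377 in cornea, and GOLPH3, whose cornea values of 4507 and 5749 overlapped its E8 values of 5817 and 5217. Reads of a Z gene and of a near-identical W copy may not be separable in these counts. The rows named for W genes, HINTW, WPKCI, SPINW, ATP5A1W and HNRPK, had no read in any of the 8 libraries.

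Nearly all members listed under cell division and DNA repair stood higher at E8, in a list chosen with earlier results of these data known. The list also held PSAT1, which belongs to neither role. Of 29 members, 28 were called higher at E8 than the mean of the other groups and none lower, with a median of 1.53, against 33.1% of all tested rows called higher and 38.3% lower. Of all members, 54.6% were called higher and 23.7% lower. In the separate comparisons 28 were lower at E16, 27 in E18 retina and 25 in cornea, and 1 was higher in cornea, where 30.3%, 31.4% and 37.0% of all rows were called lower. CENPH, a kinetochore protein, measured 5742 and 4623 at E8, 47.3 and 53.1 at E16, 43.9 and 40.9 at E18 and 799 and 897 in cornea, with a log2 difference of 5.38 ± 0.16 against the mean of the others (adjusted p = 3.3e-08). CENPK, its partner, measured 2747 and 2645 at E8, 169 and 191 at E16, 130.3 and 141 at E18 and 633 and 561 in cornea. E8 stood 101-fold above E16 for CENPH and 14.9-fold for CENPK, and both genes were, like SMC2, intermediate in cornea. LMNB1, lamin B1, measured 5858 and 4575 at E8, 1041 and 884 at E16, 531 and 571 at E18 and 432 and 412 in cornea. SKP2, an F-box protein of the cell cycle, measured 3378 and 2405 at E8, 1159 and 1218 at E16, 1554 and 1536 at E18 and 2441 and 2975 in cornea, and its cornea values overlapped those of E8. HAUS1, an augmin subunit of the spindle, measured 1638 and 1606 at E8, 285 and 245 at E16, 81.4 and 68.1 at E18 and 192 and 168 in cornea, and fell further between E16 and E18. The listed CDKN2A and CDKN2B were rows of the block below the minimum mean.

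Neural regulators mostly stood higher at E8 than the mean of the other groups, cornea among them. Of 15 members, 11 were called higher at E8 and 3 lower, with a median of 1.15, against 33.1% of all tested rows called higher and 38.3% lower and 54.6% and 23.7% of all members. In E16 retina 9 were lower and 2 higher than at E8, with a median of -0.70, near the -0.66 of all members. For E18 retina the counts were 8 and 3, with -0.48 against -0.51. For cornea they were 10 and 3, with -1.65 against -0.49. Of all tested rows, 30.3%, 31.4% and 37.0% were called lower and 34.1%, 35.0% and 37.4% higher. ISL1, a LIM homeodomain factor of ganglion and bipolar cells, measured 4006 and 4046 at E8, 2612 and 2351 at E16, 3061 and 3007 at E18 and 14.8 and 9.83 in cornea. NR2F1, an orphan nuclear receptor, measured 983 and 1074 at E8, 562 and 581 at E16, 434 and 637 at E18 and 301 and 354 in cornea, and all 3 other groups were called below E8, with a log2 difference of 1.15 ± 0.17 against the mean of the others (adjusted p = 0.00025). MEF2C, a MADS-box factor that acts in maturing neurons and photoreceptors, measured 43.4 and 94.1 at E8, 676 and 643 at E16, 1001 and 925 at E18 and 262 and 226 in cornea, the reverse pattern, with E18 retina 14.8-fold above E8, with a log2 difference of -3.05 ± 0.26 against the mean of the others (adjusted p = 1.0e-05). ELAVL2, a neuronal RNA-binding protein, measured 1853 and 1792 at E8, 2144 and 1909 at E16, 2035 and 2002 at E18 and 49.8 and 138 in cornea. The retinal ages overlapped or nearly so, and both cornea libraries were low.

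Synaptic genes were called in both directions. Of 28 members, 8 were called higher and 8 lower at E8 than the mean of the other groups, with a median of -0.16. These shares were somewhat below the 33.1% and 38.3% of all tested rows, and over all members they were 54.6% and 23.7%. In E16 retina 11 were higher and 6 lower than at E8, with a median of 0.51, against 34.1% and 30.3%. In E18 retina 14 were higher and 5 lower, with a median of 0.93, against 35.0% and 31.4%. In cornea 5 were higher and 19 lower, with a median of -1.26, against 37.4% and 37.0%. The mean of the other groups thus combined opposite directions. CPLX4, a complexin of photoreceptor and bipolar ribbon synapses in mouse, measured 0.586 and 0.980 at E8, 1172 and 1465 at E16, 1643 and 1636 at E18 and 0 and 0 in cornea, that is, 1 read in each E8 library. SYT4, a synaptotagmin, measured 3583 and 5742 at E8, 9500.1 and 7929 at E16, 10968 and 10673 at E18 and 70.1 and 427 in cornea. Its duplicates differed widely at E8 and in cornea. NTRK2, the BDNF receptor TrkB, measured 46.3 and 37.2 at E8, 301 and 351 at E16, 809 and 610.3 at E18 and 280.4 and 475 in cornea, with E18 retina 16.6-fold above E8. UNC13B, a vesicle priming protein, measured 1274 and 1923 at E8, 578 and 614 at E16, 1143 and 736 at E18 and 218 and 248 in cornea, with E18 duplicates that differed widely and both lay below the E8 pair. CHRNB3, a nicotinic receptor subunit outside the list, measured 2988 and 3743 at E8, 6293 and 5719 at E16, 6822 and 6739 at E18 and 0 and 3.69 in cornea. SKOR2, a corepressor also outside it, measured 2.34 and 0 at E8, 359 and 435 at E16, 331 and 379 at E18 and 0 and 0 in cornea. Both had at most 3 reads in each cornea library, and SKOR2 had at most 4 in each E8 library.

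Matrix, epithelial and cytokine receptor genes stood on the low side at E8 against the mean of the other groups, with the largest difference from cornea. In that comparison 5 of 23 members were called higher and 14 lower, with a median of -1.15, against 33.1% and 38.3% of all tested rows. In cornea 16 were higher and 5 lower than at E8, with a median of 3.53, against 37.4% and 37.0%. In E16 retina 8 were higher and 7 lower, with a median of -0.02, against 34.1% and 30.3%. In E18 retina 10 were higher and 7 lower, with a median of 0.17, against 35.0% and 31.4%. HAPLN1, the link protein of hyaluronan, measured 41.6 and 24.5 at E8, 474 and 578 at E16, 883 and 921 at E18 and 349 and 463 in cornea, and E18 retina was 27.4-fold above E8, with a log2 difference of -4.13 ± 0.23 against the mean of the others (adjusted p = 8.0e-07). VCAN, the proteoglycan it binds, measured 748 and 457 at E8, 341 and 268 at E16, 302 and 199 at E18 and 2085 and 2764 in cornea, with a different order of the groups. OSMR, the oncostatin M receptor, measured 14.6 and 8.82 at E8, 63.1 and 45.8 at E16, 167 and 136 at E18 and 1778 and 1293 in cornea. ANXA1, annexin A1, measured 31.1 and 11.8 at E8, 9.46 and 12.3 at E16, 2.51 and 1.51 at E18 and 12371 and 9979 in cornea, with the 2 cornea libraries far above the retinas. LPAR1, a receptor of lysophosphatidic acid, measured 114 and 71.5 at E8, 212 and 226 at E16, 397 and 416 at E18 and 1109 and 1225 in cornea, the groups standing in that order without overlap.

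Of 16 housekeeping members, 9 were called higher at E8 and 2 lower, with a median of 0.43. The share called higher was near the 54.6% of all members, with 33.1% of all tested rows called higher and 38.3% lower. ACO1, the cytosolic aconitase, measured 2514 and 2053 at E8, 3263 and 3124 at E16, 3246 and 3032 at E18 and 1051 and 1263 in cornea. TXN, thioredoxin, measured 6469.6 and 6242 at E8, 2954 and 3106 at E16, 2414 and 2714 at E18 and 17578 and 22710.2 in cornea, E8 2.10-fold above E16 and cornea 3.14-fold above E8. Of the 7 listed genes of sex determination and the gonad, 6 were in the block and 3 were members. DMRT2, a neighbour of DMRT1 in the same family, measured 0 and 0 at E8, 3.15 and 5.72 at E16, 11.3 and 8.33 at E18 and 164 and 155 in cornea. FST, follistatin, measured 11.1 and 16.7 at E8, 65.2 and 53.9 at E16, 85.2 and 50.0 at E18 and 378 and 375 in cornea. Both were called lower at E8. AMACR measured 398 and 293 at E8, 279 and 263 at E16, 292 and 319 at E18 and 327 and 384 in cornea and was not called. DMRT1, below the minimum mean, measured 20.5 and 4.90 at E8, 0 and 0 at E16, 1.25 and 0.757 at E18 and 20.3 and 28.3 in cornea. HEMGN stayed under 15 in all libraries, and DMRT3 under 3.

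Along the row order the excess at E8 was spread over the whole block. Cut into 8 consecutive segments of 72 or 73 members, the median log2 difference of E8 from the mean of the others lay between 0.32, from FBN2 to TOPORS, and 0.69, from ELAVL2 to MELK. In the last segment 57 of 72 members were higher at E8, and in the others between 41 and 47. A running median over 15 members was above 0 in 471 of 563 windows (83.7%). The longest run of members higher at E8 than the mean of the other 3 groups was 13, from CEP120 to MELK at the end of the block. Of these, 11 were called higher at E8, where 33.1% of all tested rows were. The run was picked by that same direction, so these calls only describe it. The next longest was 10, from SK2 to SRFBP1. Runs of a single class were short. They reached 3 members above 2-fold, as from CWC27 to PPWD1, and 3 with no difference, from PTBP3 to UGCG. No neighbouring members were both near 2-fold.

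**Figure D4:**
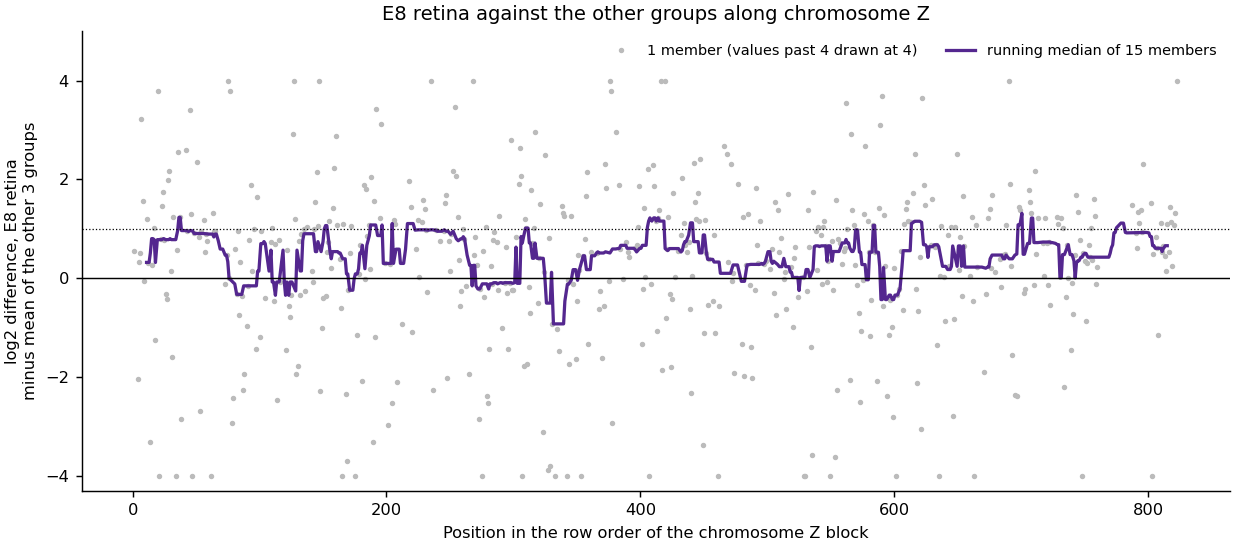
log2 difference of E8 retina from the mean of the other 3 groups for each of 577 members (points) in the row order of the block, with the running median of 15 members (line), a solid line at 0 and a dotted line at 1. The line lies above 0 in 83.7% of windows, dips to -0.92 and peaks at 1.31.

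The 92 windows below 0 formed 15 stretches. The lowest running median, -0.92, was shared by several consecutive windows. The first of these, described here, covered the 15 members from TNPO1 to ENSGALG00000018479, a stretch that also holds the row of DMRT1. Of these 15 members, 8 were called lower at E8 and 6 higher, where 38.3% and 33.1% of all tested rows were called. PGM5, an aciculin of cell adhesion sites, was among the low ones and measured 25.2 and 19.6 at E8, 59.9 and 77.6 at E16, 342 and 338 at E18 and 1437 and 1957 in cornea. DOCK8, a guanine nucleotide exchange factor, measured 5.27 and 4.90 at E8, 48.4 and 49.8 at E16, 36.3 and 24.2 at E18 and 397 and 402 in cornea. Both rose from E8 to E16 and were highest in cornea. SMARCA2, the BRM ATPase of the SWI/SNF complex, measured 1565 and 1926 at E8, 2015 and 1871 at E16, 3453 and 2990.0 at E18 and 6720.3 and 7310.1 in cornea. KANK1 measured 399.6 and 373 at E8, 265 and 315 at E16, 361 and 324 at E18 and 4254 and 3734 in cornea. In both the cornea was the highest group, while the retinal ages of KANK1 lay close together. Next to them stood members with an excess at E8. MAP1B, a neuronal microtubule protein, measured 8501 and 8355 at E8, 3538 and 2653 at E16, 4543 and 2937 at E18 and 218 and 400.4 in cornea. KIAA0020, which GRCg7b lists as the Pumilio protein PUM3, measured 3044 and 2586 at E8, 907 and 918 at E16, 1021 and 1012 at E18 and 1081 and 1176 in cornea. RFX3, a transcription factor of cilia genes, measured 724 and 769 at E8, 326 and 332 at E16, 435 and 341 at E18 and 192 and 228 in cornea. The median of this first window was low against cornea, at -1.33, and less so against the retinas, at -0.16 for E16 and -0.17 for E18. In the last of the tied windows, from DOCK8 to gga-mir-6669, the medians were -1.33 against cornea, -0.61 against E16 and -0.66 against E18 retina. There 4 of 15 members were higher at E8 than the mean of the others. The stretch just before the first tied window, 17 members from ENSGALG00000013512 to RFX3 that overlap it, went down to -0.50. Another stretch, of 24 members from RAD23B to ENSGALG00000027154, went down to -0.43, and the stretch with most windows below 0, 25 of them over 39 members from SREK1 to NSA2, went down to -0.22.

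The highest running median, 1.31, covered the 15 members from SMC2 to MOB3B, 8 of which were called higher at E8 and 3 lower. These shares stand beside 33.1% and 38.3% of all tested rows and 54.6% and 23.7% of all members, so the calls higher were near the share of the block. PTGR1, prostaglandin reductase 1, measured 3834 and 3034 at E8, 517 and 526 at E16, 465 and 437 at E18 and 2874 and 3410.0 in cornea, 6.53-fold higher at E8 than at E16, and its cornea libraries overlapped E8. CAAP1, PLAA and IFT74, consecutive members near its end, were all highest at E8. CAAP1 measured 660.3 and 733 at E8, 179.7 and 223 at E16, 194 and 217 at E18 and 249 and 163 in cornea, with ratios of 3.46, 3.38 and 3.44. PLAA, a cofactor of VCP, measured 3929.7 and 2986 at E8, 1271 and 1163 at E16, 1217 and 1279.6 at E18 and 1090.2 and 1088 in cornea. IFT74, a subunit of the intraflagellar transport complex, measured 998 and 1039 at E8, 354 and 344 at E16, 442 and 417 at E18 and 472 and 439.8 in cornea. TOPORS, a ubiquitin and SUMO ligase, measured 1701 and 1269 at E8, 561 and 549 at E16, 496 and 484 at E18 and 552 and 612 in cornea, with ratios of 2.64, 2.99 and 2.53. The member just before TOPORS, TMEM215, stood the other way and measured 4.10 and 5.88 at E8, 59.9 and 74.4 at E16, 35.1 and 23.5 at E18 and 12.9 and 14.7 in cornea. The extreme windows depended on the width, with -0.22 and 1.11 over 25 members and -1.43 and 1.88 over 9.

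The 2 comparisons that leave E8 out showed smaller shifts of the block. Between E16 and E18 retina, 85 members were higher at E18 and 29 lower, where 10.7% and 7.87% of all tested rows were called. The median log2 difference was 0.16 over members and 0.02 over the outside rows. The member median lay above the range of -0.18 to 0.12 over the 25 other chromosomes. The count of 114 called members changed strongly with the libraries in the fit. It fell when any E16 or E18 retina library was left out and rose when an E8 or cornea library was left out. In the 4 libraries compared alone it was 246. The shares of all tested rows called in these fits are not given here, so the changes cannot be read as particular to the block. The member median was 0.16 and 0.15 without E16 replicates 1 and 2. It was 0.14 and 0.16 without E18 retina replicates 1 and 2, and 0.16 in the 4 libraries alone. PRLR, the prolactin receptor, measured 41.6 and 60.8 at E8, 21.0 and 19.6 at E16, 296 and 309.7 at E18 and 179 and 155 in cornea and rose. CMYA5, a protein of the muscle Z-disc, measured 0.586 and 0 at E8, 17.9 and 19.6 at E16, 147 and 108 at E18 and 162 and 214 in cornea. Between cornea and E18 retina, 226 members were higher in cornea and 180 lower, with 36.9% and 34.5% of all tested rows called. The median was 0.14 over members and 0.01 over the outside rows, inside the range of -0.12 to 0.23 over the 25 other chromosomes. RAX1, a homeobox factor of the retina, measured 1928 and 1737 at E8, 1289.7 and 1042 at E16, 797 and 1414 at E18 and 0 and 2.46 in cornea.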

How the data were processed

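Poly-A RNA of whole chicken tissue was sequenced as stranded paired-end libraries. According to the study's methods and the submitters' processing notes, the authors aligned reads to galGal4 with STAR, counted them per gene with featureCounts and divided the counts by DESeq2 size factors. The annotation release and the strand setting of the counting are not given in the sources used here. The deposited values are therefore a signal per gene, called normalized counts in the text, with no correction for length, so levels are not to be compared between genes. Dividing by the value of 1 read gave whole reads for 100% of values (tolerance 0.001), with 15662779 to 45670254 reads per library. A library's depth sets the precision of low values only through counting.

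Tests used limma 3.58.1 with a trend, on log2(normalized count + 1), with 1 term per group over all 8 libraries and Benjamini-Hochberg adjustment over the 13194 rows that edgeR's filterByExpr kept at a minimum count of 10. There were 6 comparisons, called at an adjusted p under 0.05. Alternatives were edgeR 4.0.16 (quasi-likelihood, TMM), DESeq2 1.42.0, scaling from rows outside the block, pseudocounts of 0.5 and 5, no filter, only the groups compared, a replicate block, leaving out each library, other class limits and window widths. Only the limma fit was tried on simulated data, for E8 against the mean of the other groups. Those data held 2-fold changes and the same spread setting in every group. The real duplicates differed more at E8 and in cornea than in the later retinas.

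The text names, apart from a few genes not reported here, the 6 members of each class with the highest mean, the 3 largest rises and falls of each comparison among called members without overlap, the members of the extreme windows and the first 4 members of each role list. ALDH1A1, PTCH1, KLF9, SH3GL2, LMNB1, GLRX, OSMR, NEDD4L, GOLPH3 and the unnamed rows were added after their values were seen, and the remaining symbols are named by class only. Members, lists and rules were chosen with earlier results of these data known. Names were looked up in NCBI's gene table of GRCg7b, which gave the chromosome of each matched row. Its start positions were used only to check the row order on Z. Sequences were not used here.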

Additional observations from a re-analysis of the deposited data

How the results depend on the processing

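Of the values that answer a comparison, counts of called members among them, 265 under the alternatives were classed as the same. Another 5 were classed as moved, 4 as weaker and 1 as stronger, and none as reversed. Between E16 and E18 retina the count of called members, 114, became 246 in a fit of those 4 libraries alone and ranged from 8 to 139 when 1 library was left out, 8 being the value without E18 retina replicate 1. Limits of 1.4 and 3 in place of 1.5 and 2.5 raised the near 2-fold class from 35 to 70 members. The extreme running medians of -0.92 and 1.31 became -0.22 and 1.11 with windows of 25 members and -1.43 and 1.88 with windows of 9. The cause of these changes was not tested.

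The differences between duplicates correlated between -0.05 and 0.05 across groups, which cannot show whether the replicate numbers pair the libraries. The study gives libraries of the same number the same subject label in every group and at every age, so the label repeats the replicate number. Whether E18 retina and E18 cornea of the same number came from the same embryo was not tested. With a replicate block, 430, 434, 451, 449, 107 and 404 members were called in the comparisons of E16, E18 and cornea with E8, of E8 with the mean of the others, of E18 with E16 retina and of cornea with E18 retina, against 431, 440, 453, 452, 114 and 406 without it. The shares of all tested rows called with the replicate block are not given here. For single named members, 5239 values kept their call and 194 lost it, most often when a library was left out. No member called both in the main fit and in an alternative changed direction between them. With 2 libraries per group, no member has more than 1 degree of freedom of its own in a group, and depth limits the rows at or near 0.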
